A study of Monodelphis domestica and Mus musculus and Sus scrofa with 73 samples.

Results

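Forelimbs and hind limbs of bat embryos were compared at stage 13, when both are limb ridges that have only begun to grow out of the body wall. The bat was Carollia perspicillata, the short-tailed fruit bat, taken as embryos in the field in Trinidad and staged by a published system for this species. The comparison was made of all libraries with the stage number 13 in their labels, 3 of forelimb and 3 of hind limb, out of 16 bat libraries analysed here. The other bat libraries were 3 forelimb and 3 hind limb libraries of stage 14 and 2 of each limb at stage 15. They are used below only to follow the stage 13 genes and to place the stage 13 libraries. No treatment or genetic change is named for either limb, and both groups are of the same species and stage. The paper describes the field collection, staging, storage in RNALater and extraction of total RNA for bat forelimbs of stages 14 and 15. The same is assumed here for the stage 13 libraries of both limbs, which were sequenced with single-end reads.

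Limb buds form at fixed levels of the flank, where mesenchyme under a thickened ectodermal ridge proliferates under fibroblast growth factor signals. Forelimb and hind limb use largely the same outgrowth machinery and are told apart by transcription factors, Tbx5 in the forelimb and Pitx1 and Tbx4 in the hind limb. In bats the forelimb later becomes a wing with greatly lengthened digits joined by membrane, while the hind limb stays small and clawed. The genes of the deposited tables are components of a transcriptome assembled from bat reads. Their numbered identifiers carry no gene names, so the labels could not be checked against these factors and no sequence is shown. The assembly can hold 1 gene as several components or merge close relatives, and reads shared between such components make single values less certain.

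The tables list 27026 genes, of which 24441 had a count in 1 or more of the 6 libraries and 14729 reached 10 rounded counts in 3 or more of them. These 14729 genes were tested. The sums of expected counts were 29498454, 27535112 and 13600741 in forelimb replicates 1, 2 and 3, and 16285242, 16997407 and 23526020 in hind limb replicates 1, 2 and 3. At these depths 3 counts, the level that a count of 0 allows, are worth from 0.102 to 0.221 CPM (counts scaled to library size), which covers counting error only. The deposited names give the 3 libraries of each limb different specimen numbers. Whether these numbers stand for separate embryos or litters is not stated, so the p-values measure the spread between these libraries. A limb is a mixture of cell types, and in these bulk libraries fewer cells of a type and less RNA per cell cannot be told apart.

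Forelimb replicate 3 lay apart from the other forelimb libraries. Over the 23850 genes whose FPKM was above 0 in any of the 6 libraries, forelimb replicates 1 and 2 had a Spearman coefficient of 0.905. Forelimb replicate 3 had coefficients of 0.747 and 0.758 with them, and of 0.741, 0.777 and 0.775 with hind limb replicates 1, 2 and 3. The 3 hind limb libraries had coefficients from 0.782 to 0.800 with each other. By Pearson coefficients of log2 CPM over the tested genes, forelimb replicate 3 was nearer to the hind limb than to the other forelimb libraries. It had 0.942 and 0.943 with forelimb replicates 1 and 2, and 0.954, 0.976 and 0.973 with hind limb replicates 1, 2 and 3. Forelimb replicates 1 and 2 had 0.986 with each other on this scale. In log2 CPM of the tested genes, 2291 genes (15.6%) in forelimb replicate 3 differed over 2-fold from the mean of the other forelimb libraries, 1730 of them higher and 561 lower. The same measure gave from 871 to 1216 genes in the other 5 libraries. The biological coefficient of variation, edgeR's estimate of the spread between libraries beyond counting error, was 0.343 over the 3 forelimb libraries, 0.171 over forelimb replicates 1 and 2, and 0.244 over the hind limb libraries. Because of this, the main results are given with and without forelimb replicate 3. Forelimb replicates 1 and 2 were in turn nearer to later stages of both limbs than to the stage 13 hind limb. Over all 16 bat libraries, their mean Spearman coefficients of FPKM were 0.775 and 0.782 with the stage 13 hind limb. They were 0.896 and 0.916 with the stage 14 forelimb, and 0.881 and 0.907 with the stage 15 hind limb. Forelimb replicate 3 had 0.777, 0.757 and 0.731 in the same order.

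**Figure D1:**
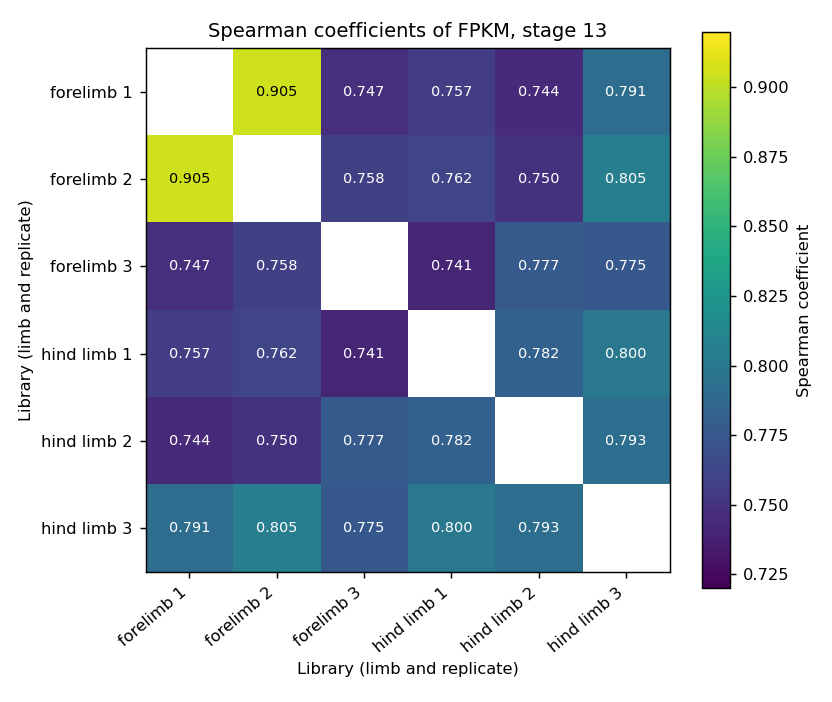
Spearman coefficients of FPKM between the 6 stage 13 libraries, with limb and replicate on both axes and the coefficient as colour and number. The pair of forelimb replicates 1 and 2 stands highest at 0.905, and forelimb replicate 3 is no closer to them (0.747 and 0.758) than to the hind limb libraries (0.741 to 0.777).

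The mean Spearman coefficient of FPKM within limbs was 0.798 and that between limbs was 0.767, a difference of 0.0307. An exact permutation test over all assignments of the limb labels gave a two-sided p of 0.2, where the smallest p that the design allows is 0.1. The test thus could not have passed 0.05 at this number of libraries. Without forelimb replicate 3 the difference was 0.0519, also with p = 0.2 in the exact test. In the same exact test it was 0.00476 (p = 0.5) over genes of 1000 bases or more and 0.00686 (p = 0.3) with expected counts in place of FPKM. The levels of the coefficients also depended on the genes and the measure. The means within and between limbs were 0.969 and 0.964 over the longer genes, and 0.960 and 0.953 with expected counts.

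Few genes passed the test between the limbs. With all 6 libraries, 11 genes (0.0747% of those tested) had an adjusted p under 0.05 in edgeR's quasi-likelihood test. Of these, 4 (0.0272%) were higher in the forelimb and 7 (0.0475%) were higher in the hind limb. The count depended on the test, since DESeq2 called 127 genes (0.862%) and limma with library quality weights, which gave forelimb replicate 3 a weight of 0.320, called 821 (5.57%), the 11 among them in both. The 11 are called here forelimb-high genes 1 to 4 and hind-limb-high genes 1 to 7, numbered by p within each direction. In 11 of 11 the 3 forelimb values did not overlap the 3 hind limb values, which was so for 1639 genes (11.1%) of all those tested. The differences of the 11 were large beside those of the other genes. Over all tested genes the median absolute log2 difference was 0.21, and 704 genes (4.78%) differed over 2-fold, while the 11 had absolute log2 fold changes from 1.29 to 7.66. The same 6 libraries chose the 11, and that choice favours both groups without overlap and large differences.

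Hind-limb-high gene 1, comp102066_c0, a component of 981 bases with 1 isoform, had the smallest p of all. Its rounded counts were 6, 11 and 9 in forelimb replicates 1, 2 and 3, against 1280, 1418 and 1874 in the hind limb replicates. In CPM these were 0.217, 0.405 and 0.628 in the forelimb and 76.7, 79.5 and 79.3 in the hind limb. The hind limb values lay within a narrow range, and the forelimb values, all under 1 CPM, were close to the floor of the counting. The log2 fold change of forelimb over hind limb was -7.66 (SE 0.31, adjusted p = 4.0e-05), or 202-fold. In FPKM, which allows for length, the gene stood at 125 ± 3.97 (SD, n = 3) in the hind limb and 0.657 ± 0.356 in the forelimb.

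Hind-limb-high gene 2, comp116764_c0, of 1247 bases, was close to absent from the forelimb libraries. Its counts there were 1, 2 and 1, against 117, 145 and 231 in the hind limb. The hind limb values were 7.01, 8.13 and 9.77 CPM. The log2 fold change was -7.03 (SE 0.45, adjusted p = 0.000964). Because only 4 forelimb counts stand behind it, the ratio of summed counts was also taken directly, and was 146 with an exact 95% counting interval from 56.8 to 539.

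Forelimb-high gene 1, comp122265_c0, of 3329 bases with 2 isoforms, had the smallest p of the genes higher in the forelimb. It had 72.3, 75.2 and 97.4 CPM in forelimb replicates 1, 2 and 3, and 4.79, 6.95 and 2.88 CPM in the hind limb replicates. Forelimb replicate 3 held the highest value of the 6. The log2 fold change was 4.06 (SE 0.33, adjusted p = 0.00333), or 16.6-fold. Its FPKM was 25.1 ± 5.98 (SD, n = 3) in the forelimb and 1.70 ± 0.670 in the hind limb.

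Forelimb-high gene 2, comp125907_c0, of 4779 bases with 2 isoforms, had 25.8, 31.8 and 16.6 CPM in the forelimb and 0.539, 1.85 and 1.10 CPM in the hind limb. Here forelimb replicate 3 held the lowest of the forelimb values, though still far above the hind limb. The log2 fold change was 4.39 (SE 0.46, adjusted p = 0.0175). The adjusted p of this gene was 0.0981 without forelimb replicate 1, 0.109 without forelimb replicate 2 and 0.166 without hind limb replicate 3.

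Among the other forelimb-high genes, gene 3, of 3617 bases, had 6.52, 10.6 and 10.05 CPM in the forelimb and 0.719, 1.06 and 0.804 CPM in the hind limb. Its log2 fold change was 3.37 (SE 0.36, adjusted p = 0.0185). Gene 4, of 4096 bases, was abundant in both limbs, with 123, 113 and 127 CPM in the forelimb and 43.3, 44.6 and 58.9 CPM in the hind limb. Its log2 fold change of 1.29 (SE 0.15, adjusted p = 0.0284) was the smallest of the 11. In both genes the 3 forelimb libraries lay together, forelimb replicate 3 included. Each of these 2 genes lost its call in 4 of 15 alternatives, with adjusted p up to 0.166 for gene 3 and 0.197 for gene 4, and forelimb-high gene 1 lost it in none of 15.

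Of the other hind-limb-high genes, 2 reached over 50 CPM in every hind limb library. Gene 3, of 3760 bases with 36 isoforms, had 2.14, 5.53 and 3.42 CPM in the forelimb against 141, 121 and 133 in the hind limb, a log2 fold change of -5.16 (SE 0.34, adjusted p = 0.000964). Gene 4, of 2785 bases, had 4.60, 8.51 and 4.54 CPM in the forelimb against 73.0, 145 and 128 in the hind limb, a log2 fold change of -4.29 (SE 0.36, adjusted p = 0.00654). Both were thus measured at many counts in the hind limb and at a low but clear level in the forelimb, with from 49 to 231 counts in each forelimb library.

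The last 3 hind-limb-high genes were less abundant or differed less. Gene 5, of 1252 bases, had 1, 0 and 0 counts in the forelimb libraries and 47, 36 and 57 in the hind limb libraries. The ratio of its summed counts was 166, with an exact counting interval from 29.4 to 6613, and its adjusted p was 0.0227. Gene 6, of 1051 bases, had 5.47, 5.86 and 4.54 CPM in the forelimb and 20.0, 16.3 and 20.0 CPM in the hind limb, a log2 fold change of -1.83 (SE 0.23, adjusted p = 0.0434). Gene 7, of 575 bases, had 0.253, 0.369 and 0.279 CPM in the forelimb and 3.95, 2.47 and 4.31 CPM in the hind limb, a log2 fold change of -3.55 (SE 0.45, adjusted p = 0.0455). Genes 6 and 7 stood nearest to the threshold, and the gene next in order, which was not called, had an adjusted p of 0.0620. Under the alternatives in which each was tested, gene 6 lost its call in 7 of 15 (adjusted p up to 0.291) and gene 7 in 7 of 13 (up to 0.346). Gene 5 lost it in 3 of 11 (up to 0.154), while hind-limb-high genes 1 to 4 lost it in none of theirs.

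**Figure D2:**
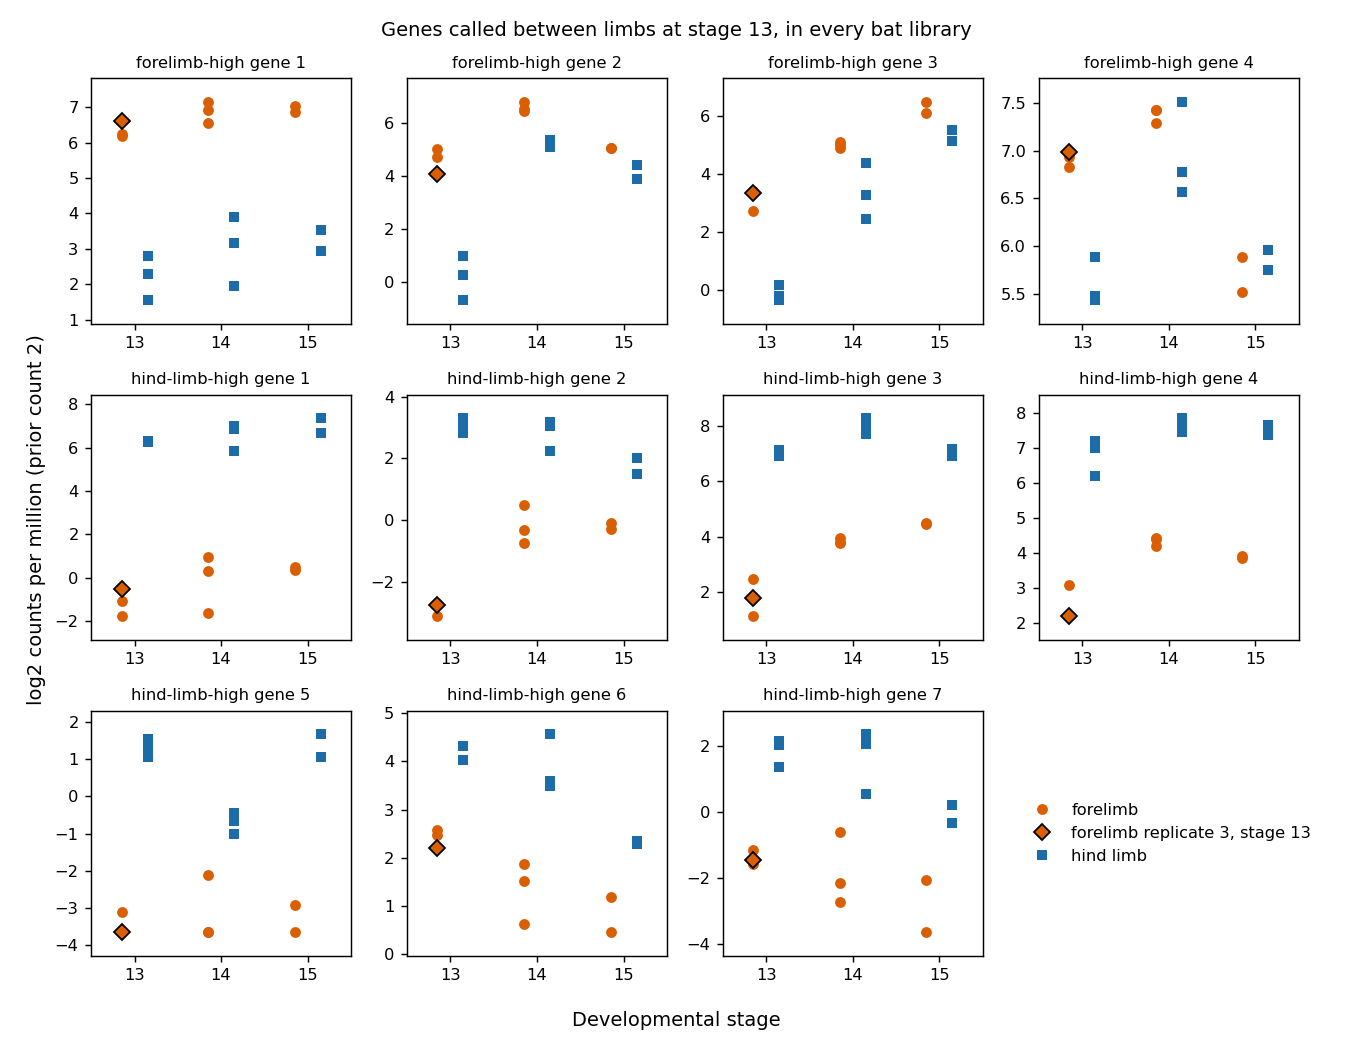
Level of the 11 genes called between limbs at stage 13 (log2 CPM with a prior count of 2, on a separate vertical scale for each gene) in every library of stages 13, 14 and 15, with 1 point a library, orange for forelimb and blue for hind limb, and a black-edged diamond for forelimb replicate 3 of stage 13. The diamond lies with the forelimb points in each panel, and the colours stay apart at stages 14 and 15 in 10 of the 11 panels, the exception being forelimb-high gene 4.

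Forelimb replicate 3 was part of the fit that chose these genes, so its place among the forelimb libraries there is fixed by the choice. The libraries of the later stages were not. Each of the 11 genes could be tested at stages 14 and 15. All 11 had the same sign at stage 14, where the sign was the same for 52.2% of all genes tested at both stages, and 6 of the 11 were called there (23 genes, 0.155%, were called in all). At stage 15, 10 of the 11 had the same sign (56.7% of all genes) and 6 were called (122 genes, 0.823%, in all). The values of the limbs did not overlap, in the stage 13 direction, for 10 of the 11 at each later stage, where 14.6% of tested genes at stage 14 and 36.5% at stage 15 did not overlap in either direction. At stage 15 only 2 libraries a limb were at hand.

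The genes kept their difference to unequal degrees. Forelimb-high gene 1 (comp122265_c0) had log2 fold changes of 4.06, 3.67 and 3.73 at stages 13, 14 and 15, and hind-limb-high gene 1 (comp102066_c0) had -7.66, -6.47 and -6.68. Both were called at each later stage, with adjusted p-values of 0.0188 and 0.00347 at stage 14. Forelimb-high gene 2 (comp125907_c0) went from 4.39 to 1.39 and 0.89. Its hind limb level was 1.16 ± 0.658 CPM (SD, n = 3) at stage 13, 36.5 ± 3.52 at stage 14 and 17.9 ± 4.55 (n = 2) at stage 15. Its mean forelimb level was 24.7, 96.0 and 33.3 CPM at the same stages. Hind-limb-high gene 2 (comp116764_c0) went from -7.03 to -3.08 and -2.07. Its mean level at the 3 stages was 0.0599, 0.851 and 0.802 CPM in the forelimb and 8.30, 7.24 and 3.34 CPM in the hind limb. Forelimb-high gene 4 went from 1.29 to 0.37 and -0.14, and its limbs overlapped at both later stages.

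The test of the difference between stages called none of these changes. With edgeR, 0 genes (0%) had an adjusted p under 0.05 for the interaction of limb with stage 13 against 14, where 830 of 15676 had an unadjusted p under 0.05, and 0 (0%) for stage 13 against 15, where 694 of 16091 did. RLE factors in place of TMM gave 0 and 2, a replicate block within each stage 5 and 0, and leaving out forelimb replicate 3 of stage 13 gave 1 and 37. The 11 genes were chosen for their difference in the same stage 13 libraries, which favours a smaller difference later, so no count of their unadjusted p-values is read. The absolute log2 fold change was smaller than at stage 13 in 9 of the 11 at stage 14 and in 11 of 11 at stage 15. Those nearest to the threshold were hind-limb-high gene 2 (comp116764_c0) against stage 15, with an interaction of 4.94 on the log2 scale (SE 0.62, adjusted p = 0.0516), and forelimb-high gene 2 (comp125907_c0) against stage 14, with -2.99 (SE 0.42, adjusted p = 0.0811). Both interactions share the stage 13 libraries.

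Genes that the later stages chose show where forelimb replicate 3 stood without having used it. Of the 23 genes called between limbs at stage 14, 22 were tested at stage 13 and 17 of them had the same sign there. Forelimb replicates 1, 2 and 3 lay beyond all 3 hind limb libraries on the forelimb side, as set by stage 14, in 16, 17 and 14 of the 22 genes. Over all genes tested at both stages the shares were 37.0%, 30.4% and 26.9%. The median difference from the hind limb mean in that direction was 1.90, 1.59 and 1.43 on the log2 scale for replicates 1, 2 and 3. Of 8 genes called in the same direction at both later stages, 8 had all 3 forelimb libraries of stage 13 on the forelimb side, with median differences of 4.10, 3.85 and 4.31. Over all genes tested at stage 13, 11.1% had limbs without overlap in either direction. Of the 8 genes, 4 were also called at stage 13 with forelimb replicate 3 in the fit. In these 8 genes forelimb replicate 3 thus stood with the forelimb. Of the 122 genes called at stage 15, 107 were tested at stage 13, and the signs were the same for 56 of the 107. Forelimb replicates 1, 2 and 3 lay beyond the hind limb on the forelimb side in 39, 38 and 34 of the 107. Over all genes tested at both stages the shares were 39.2%, 35.7% and 25.9%. The counts of the 107 were near these shares, least so for replicate 3.

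Each forelimb library was also set alone against the 3 hind limb libraries, with the single library assumed to vary like the hind limb libraries. Forelimb replicates 1, 2 and 3 gave 4 (0.028%), 10 (0.0701%) and 2 (0.0141%) genes. Of the 11 genes 3, 5 and 2 were called, and their signs were fixed by their choice, since their groups did not overlap.

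Leaving out forelimb replicate 3 changed the count of genes by far more than leaving out any other library. Without it, 1070 genes (7.36% of 14545 tested) were called, 293 (2.01%) higher in the forelimb and 777 (5.34%) higher in the hind limb, and all 11 genes above were among them. The log2 fold changes of forelimb-high genes 1 to 4 were then 3.93, 4.62, 3.30 and 1.27, and those of hind-limb-high genes 1 to 4, 6 and 7 were -7.96, -7.11, -5.10, -4.14, -1.73 and -3.51. The adjusted p of the 11 was 0.00769 or lower. Leaving out any other library in place of it left 5 or 6 genes. The call of 1070 genes also rested on both remaining forelimb libraries, since without forelimb replicate 1 or 2 as well it fell to 10 and 4 genes, and it was 1656, 581 and 202 without hind limb replicates 1, 2 and 3. The median standard error of the log2 fold change was 0.25 with 6 libraries and 0.22 with 5.

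**Figure D3:**
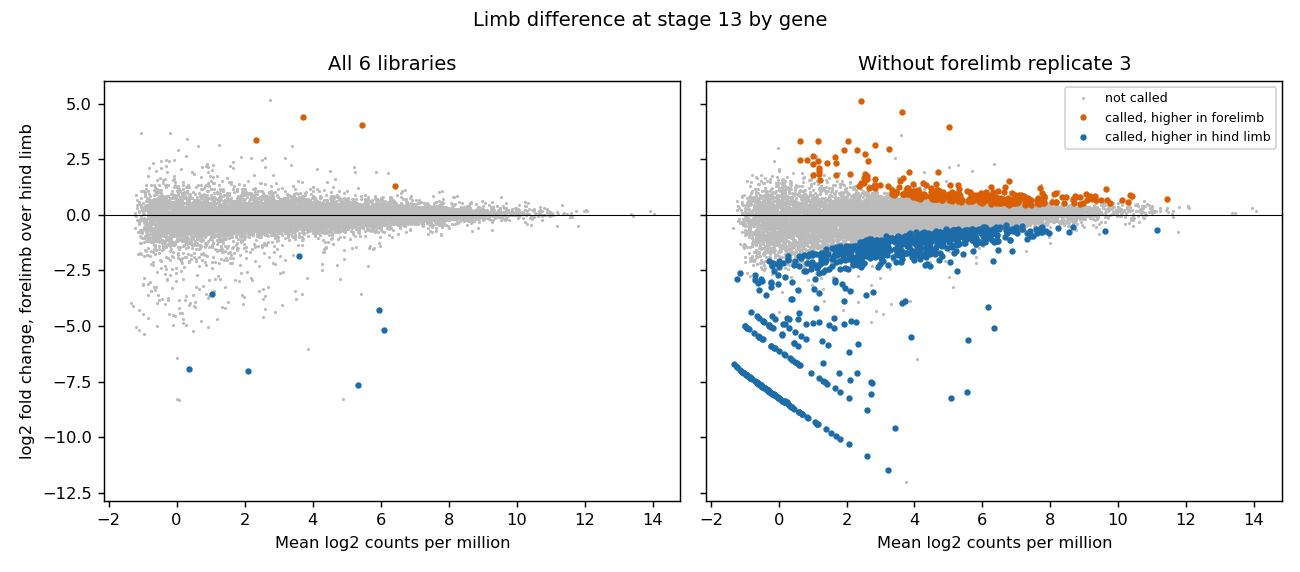
log2 fold change of forelimb over hind limb (vertical) against mean log2 CPM (horizontal) at stage 13, with 1 point a gene, for all 6 libraries on the left and without forelimb replicate 3 on the right. Called genes are 4 in orange and 7 in blue on the left, and 293 in orange and 777 in blue on the right, where the diagonal rows of blue points at low levels are genes with no or very few forelimb counts.

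The genes that this smaller set of libraries called were uneven in direction and size. Those higher in the forelimb had a median log2 fold change of 0.81, and 21 of 293 (7.17%) differed over 4-fold. Those higher in the hind limb had a median of -1.59, and 277 of 777 (35.6%) differed over 4-fold. Of these 777, 88 (11.3%) had no count in forelimb replicates 1 and 2, and with those set to a floor of 3 counts over both libraries the median stayed at -1.59 and the number over 4-fold at 277. A gene absent from the 3 hind limb libraries could not reach 10 counts in 3 of the 5 libraries, so the filter kept such genes out. With at least 10 counts in 2 libraries, a filter that such a gene could pass, 1190 genes were called. With no filter 2100 genes were called. In both cases most of the called genes were still higher in the hind limb.

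The hind-limb-high genes of the 5-library call were shorter and less abundant than the rest. Their median length was 1531 bases and their median of mean log2 CPM was 3.03, against 2152 bases and 4.42 over all genes tested, while the forelimb-high genes had 2162 bases and 5.68. By length, the share called higher in the hind limb was 17.3% of the 104 genes under 300 bases, 10.49% of 2288 genes from 300 to under 1000 bases, 4.63% of 7578 genes from 1000 to under 3000 bases and 3.67% of 4575 genes of 3000 bases or more. The share called higher in the forelimb was 4.81%, 2.01%, 2.09% and 1.84% in the same order. Of 3 equal classes by level, the lowest had 386 genes (7.96%) called higher in the hind limb and 37 (0.763%) higher in the forelimb, and the highest had 116 (2.39%) and 156 (3.22%). By isoforms, the share higher in the hind limb was 7.46% of genes with 1 isoform, 4.79% with 2 to 5 and 2.33% with 6 or more.

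The number of short genes seen at all moved with the same libraries. Of the 5602 genes under 300 bases in the tables, 11.8% and 8.96% had a count in forelimb replicates 1 and 2, 23.1% in forelimb replicate 3, and 24.3%, 25.7% and 24.8% in the hind limb replicates. At a depth matched to forelimb replicate 3, the lowest, the shares were 8.21% and 6.52% in forelimb replicates 1 and 2 and from 17.7% to 22.5% in the hind limb. Forelimb replicate 3 was thus on the hind limb side in this measure too, with the lowest depth of the 6. At the later stages the share was 19.9% in hind limb replicate 3 of stage 14 and from 6.43% to 13.6% in the other 9 libraries. Of the 1070 called genes 761 were of 1000 bases or more, and 664 genes were called when only genes of that length entered the fit. The part of short-gene detection in the called genes was not tested.

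In the 1070 genes forelimb replicate 3 lay with the hind limb. On a scale where 0 is the hind limb mean and 1 the mean of forelimb replicates 1 and 2, its median position was -0.135, with quartiles of -0.355 and 0.203. It lay below 0.5 in 933 genes (87.2%). The 293 forelimb-high genes had a median of 0.00499 and the 777 hind-limb-high genes -0.186. Against the range of the 3 hind limb libraries, forelimb replicate 3 lay inside in 321 genes (30.0%), beyond it on the forelimb side in 282 (26.4%) and beyond it on the other side in 467 (43.6%). These genes were called without that library, so the choice of genes did not use its values, but the library was set aside with its distance from the others known. The 11 genes of the 6-library call had positions from 0.828 to 1.19, which their choice favoured.

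**Figure D4:**
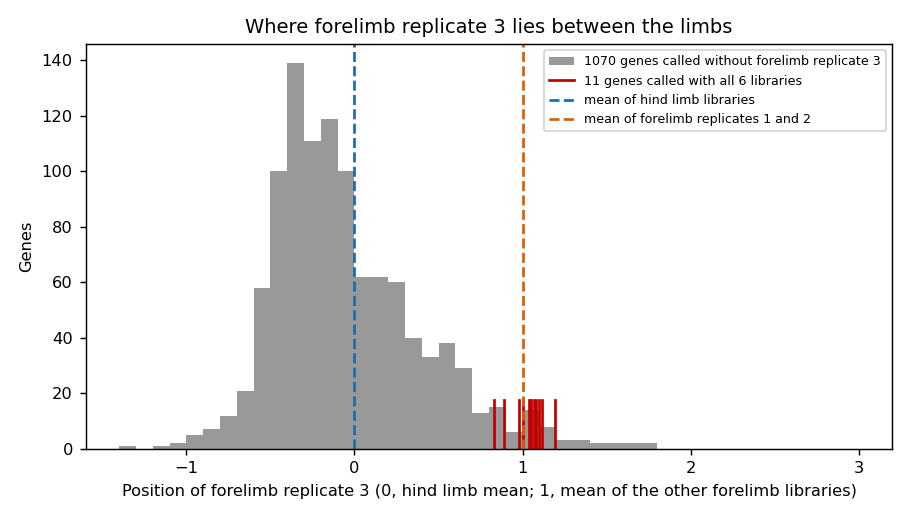
Histogram of the position of forelimb replicate 3 in the 1070 genes called without it, where 0 (blue dashes) is the mean of the 3 hind limb libraries and 1 (orange dashes) the mean of forelimb replicates 1 and 2, in log2 CPM. The vertical axis counts genes. Most lie around the hind limb mean (median -0.135), and the 11 genes called with 6 libraries (red marks) lie from 0.828 to 1.19.

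The later stages set the levels of these genes in context. For the 777 genes the median log2 CPM was 1.82 and 2.00 in forelimb replicates 1 and 2, 3.73 in forelimb replicate 3, and 3.34, 3.45 and 3.65 in the hind limb replicates of stage 13. In the 10 libraries of stages 14 and 15 it was from 1.38 to 2.59, with the highest value in hind limb replicate 3 of stage 14 and the next at 2.10. Hind limb and forelimb libraries of the later stages were thus both near forelimb replicates 1 and 2 and below the other 4 libraries of stage 13. For the 293 genes the median was 6.20 and 6.10 in forelimb replicates 1 and 2, 5.33 in forelimb replicate 3, and from 5.34 to 5.42 in the stage 13 hind limb. At the later stages it was from 5.77, in hind limb replicate 3 of stage 14, to 6.22. Over all tested genes the median stayed between 4.32 and 4.47 in the 16 libraries.

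**Figure D5:**
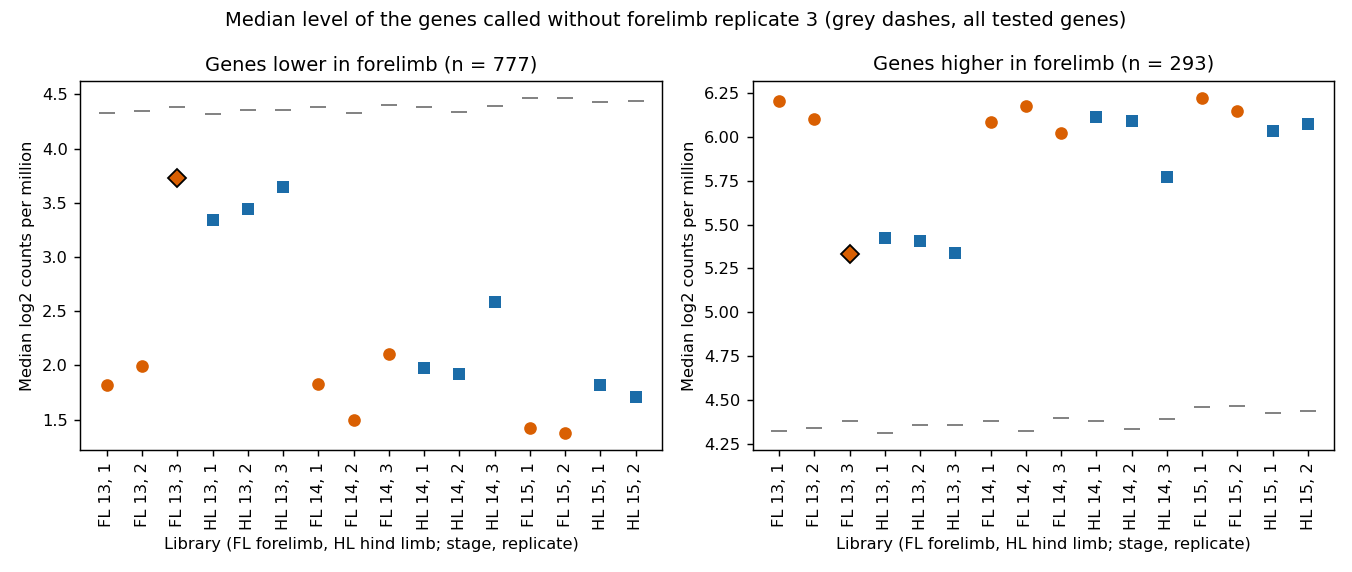
Median log2 CPM of the 777 genes lower (left) and 293 genes higher (right) in the forelimb in the call without forelimb replicate 3, for each of the 16 libraries along the horizontal axis, with orange for forelimb, blue for hind limb, a black-edged diamond for forelimb replicate 3 and grey dashes for all tested genes. On the left the diamond (3.73) and the stage 13 hind limbs (3.34 to 3.65) stand above all later libraries (1.38 to 2.59), and on the right they stand below them.

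The 88 genes with no count in forelimb replicates 1 and 2, a set picked after its values were seen, were followed through all libraries. In forelimb replicate 3, 86 of them had a count, with a median of 30.5, and in the hind limb replicates of stage 13 the medians were 23.5, 35 and 18.5 counts. Hind limb replicate 3 of stage 14 had a count for all 88, with a median of 35.5. In forelimb replicate 3 of stage 14 the median was 4 counts with 30 genes at 0, and in the other 8 later libraries the median was 0 with from 57 to 84 of the 88 genes at 0. Of the 88, 69 were shorter than 1000 bases. The absence from forelimb replicates 1 and 2 is how the set was picked, and the filter then required at least 10 counts in each stage 13 hind limb library, so only the values in forelimb replicate 3 and the later libraries were free to differ.

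The sign of the limb difference carried over to later stages in part. Of the 1070 genes, 877 were tested at stage 14 and 571 (65.1%) had the same sign there, against 52.6% of all genes tested at both. At stage 15 it was 621 of 867 (71.6%), against 56.8%. For the 777 hind-limb-high genes the shares were 69.2% at stage 14 and 76.5% at stage 15, against 58.7% and 57.0% of all genes with the same sign at stage 13, and for the 293 forelimb-high genes they were 56.8% and 62.0%, against 46.8% and 56.6%. The differences there were small, with median log2 fold changes of -0.12 and -0.22 for the hind-limb-high genes and 0.06 and 0.07 for the forelimb-high genes. At stage 14, 10 of the 1070 were called, all with the same sign, and at stage 15, 17 were called with the same sign and 4 with the opposite sign.

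The deposited names tie some of the stage 13 libraries together in other ways. Forelimb replicate 1 and hind limb replicate 3 carry the same specimen number, and whether they came from 1 embryo is not stated. The lanes in the names are 4, 1 and 2 for the forelimb and 5, 7 and 6 for the hind limb. Each library has its own lane number, so that lane cannot be told apart from limb or library. A year also stands in some names, 2013 for forelimb replicate 1 and hind limb replicates 2 and 3, and 2011 for hind limb replicate 1. Forelimb replicates 2 and 3 have none. Rounded counts of the pairs of libraries within a limb differed by a chi-square of 29.0 to 72.2 per degree of freedom, far more than counting error, so each was counted as 1 sample.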

How the data were processed

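RNASeq libraries of Carollia perspicillata limbs were grouped by the limb, stage and replicate in their labels. For its bat libraries the paper describes trimming of reads, pooled assembly with Trinity, a filter for SwissProt matches and counting with RSEM. The paper does not state whether libraries of stage 13 or of the hind limb entered that assembly. The same steps are assumed for them here. Versions, and whether counting used strand, are not given in the sources used here. The deposited expected counts are the authors' RSEM estimates of reads per gene, not normalized, and they were rounded to whole numbers. The deposited FPKM values were normalized by RSEM in the authors' hands for effective length and library size. Gene length was taken as the mean of the deposited length over the stage 13 libraries. Deposited TPM values were not used.

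Limbs were compared with edgeR's quasi-likelihood test (edgeR 4.0.16, R 4.3.3) with robust fitting, TMM scaling, a rounded count of at least 10 in 3 or more libraries (2 at stage 15) and a Benjamini-Hochberg adjusted p under 0.05 over all genes tested. Only the libraries compared entered a fit, and the stage 14 and 15 limbs were fitted apart. CPM values use TMM-scaled library sizes over all 16 libraries, and log2 CPM a prior count of 2. Positions of forelimb replicate 3 use log2 CPM of the 6 libraries. Ratios with few counts have exact binomial intervals at 95%, for counting error only. Coefficients of FPKM were compared by an exact permutation test, two-sided.

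The genes named by identifier are the 2 with the smallest p in each direction of the 6-library fit. The comparison, the treatment of forelimb replicate 3 and the gene groups were chosen with earlier results of these data known. Alternatives were RLE factors, DESeq2 1.42.0, limma 3.58.1 with library quality weights, other filters, all 16 libraries in 1 fit, matched depth, genes of 1000 bases or more, a replicate block and leaving out each library. The filters in 2 libraries and over 6 libraries for the 5-library fit were added after the data were seen. Fits were tested on simulated counts with the same spread for every gene and library, so a library lying apart was not simulated. Other steps ran in Python 3.11.15 (numpy 2.4.6, pandas 2.3.3, matplotlib 3.10.9, scipy 1.17.1).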

Additional observations from a re-analysis of the deposited data

How the results depend on the processing

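The 11 genes called with 6 libraries kept their sign under every alternative in which they were tested, and 5 to 11 of them stayed called. The alternatives took the limb difference from the same stage 13 libraries, where the groups of these genes did not overlap. Their signs were thus fixed by their choice. The number of genes called moved widely. For the 6 libraries (11 genes) it was 127 with DESeq2, 821 with limma voom and quality weights (which gave forelimb replicate 3 a weight of 0.320), 34 with no filter, 59 with all bat libraries in 1 fit, 8 at matched depth, and from 5 to 1070 when 1 library was left out, the highest without forelimb replicate 3. For the 5 libraries (1070 genes) it was 1959 with DESeq2, 2100 with no filter, 664 with genes of 1000 bases or more, 1190 with at least 10 counts in 2 libraries, and from 4 to 1656 when 1 more library was left out. The cause of these shifts was not tested.

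Deviations of forelimb and hind limb libraries with the same replicate number had correlations of 0.167, -0.201 and -0.00606. Those with unlike numbers had correlations from -0.175 to 0.209. With 3 libraries a limb these values cannot tell whether the numbers pair the libraries. A replicate block gave 12 genes with 6 libraries and 642 with 5. For the interaction of limb with stage (0 genes each), a replicate block within each stage gave 5 against stage 14 and 0 against stage 15, leaving out forelimb replicate 3 of stage 13 gave 1 and 37, and RLE factors gave 0 and 2. The difference of Spearman coefficients (0.0307) was 0.00476 over genes of 1000 bases or more, 0.00686 with expected counts, and between 0.0151 and 0.0519 without 1 library, and its exact p did not fall under 0.2 in any alternative. Counts of genes with the same sign at later stages and the position of forelimb replicate 3 stayed within 1.5 times and within the replicate spread of their main values.

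With 2 or 3 libraries a limb, depths from 13600741 counts and no gene names, differences of under 1.29 on the log2 scale were not called with 6 libraries, and the identity of the called genes was not analysed here.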
